A study of Mus musculus with 4 samples.

Results

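The genes described here serve the endoplasmic reticulum (ER), where proteins that leave the cell or enter membranes are made and folded, and the unfolded protein response that controls the capacity of the ER. They are 40 genes picked by name, with earlier results of these data known: 16 chaperones and folding enzymes, 11 subunits of the translocon and signal peptidase, 8 genes of ER-associated degradation, and 5 sensors and transcription factors. Of the 40, 39 were measured by a probe set that the platform annotation pairs with 1 gene symbol. Sec61g had no such probe set and is not analysed here. Where a gene had several probe sets, the one with the highest mean over the 4 arrays stood for it. All 39 reached the floor of 3.29 on the log2 scale, which is the median of all values, on 1 array or more, as did 11653 of the 18193 named genes of the series.

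Both progenitor populations were unstimulated, untreated cells of mice on a mixed C57BL6J/129SV background. Wild-type granulocyte monocyte progenitors (GMP), which give rise to granulocytes and monocytes, were set against GMP of Trib1-/- mice. The other population carries the label MDP and a cell type written as macrophage dendritic cell, and was likewise sorted from wild-type and Trib1-/- mice. MDP is the usual name of a progenitor of monocytes, macrophages and dendritic cells. Trib1 encodes a pseudokinase that recruits the ubiquitin ligase COP1 to C/EBP factors. Each of the 4 groups was 1 Affymetrix array of total RNA that had been amplified and labelled with biotin. With 1 array per group no difference below has a replicate check, so no test was made and no p-value is given. The sort gates, the number and age of the animals behind each array and which stretch of Trib1 is deleted are not stated in the sources used here.

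Secretory and membrane proteins enter the ER through the Sec61 channel, lose their signal peptide to the signal peptidase, and fold with the help of lectin chaperones, heat shock family chaperones and disulfide isomerases. Chains that fail to fold are sent back to the cytosol and degraded. When unfolded chains build up, IRE1 splices the Xbp1 messenger, PERK raises translation of ATF4, and ATF6 is cut and moves to the nucleus. These factors switch on chaperone and degradation genes. Granulocyte progenitors make large amounts of granule proteins such as myeloperoxidase and neutrophil elastase, which pass through the ER. XBP1 is best known in blood for its part in plasma cells and eosinophils.

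The DNA letters best known to link these genes are those of the ER stress element, a CCAAT box and a CCACG box with 9 bases between them, read by ATF6, XBP1 and the factor NF-Y. It was searched as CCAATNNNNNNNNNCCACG and, on the opposite strand, as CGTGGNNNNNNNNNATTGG, in windows that run from 250 bases before to 50 bases after each gene's start (RefSeq, build GRCm38.p6). Of the 40 genes, 32 had a window, and 9 of these (28.1%) held the element. Over all 27025 genes with a window, 37 (0.137%) held it, so the 9 genes made up 24.3% of its holders. A match describes these letters and does not show that a factor binds there. The sequences below, written 5′ to 3′ along the strand of the gene, show the element of 7 holders, with the boxes in capitals. They were chosen to span holders with large and with small differences between the progenitors.
Hspa5 (chr2:34772005-34772063, + strand): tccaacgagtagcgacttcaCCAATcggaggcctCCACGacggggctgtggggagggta
Hsp90b1, nearer element (chr10:86705513-86705571, - strand): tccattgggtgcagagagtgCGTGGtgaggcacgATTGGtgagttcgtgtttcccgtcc
Hsp90b1, farther element (chr10:86705618-86705676, - strand): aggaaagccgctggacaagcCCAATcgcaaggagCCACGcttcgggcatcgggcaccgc
Dnajc3 (chr14:118937807-118937865, + strand): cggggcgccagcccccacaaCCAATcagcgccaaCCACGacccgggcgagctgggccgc
Creld2 (chr15:88819500-88819558, + strand): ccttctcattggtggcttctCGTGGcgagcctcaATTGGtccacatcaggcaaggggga
Pdia6 (chr12:17266471-17266529, + strand): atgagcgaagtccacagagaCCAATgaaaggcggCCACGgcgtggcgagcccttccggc
Syvn1 (chr19:6046512-6046570, + strand): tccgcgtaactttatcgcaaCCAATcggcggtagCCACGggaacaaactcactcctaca
Derl3 (chr10:75893222-75893280, + strand): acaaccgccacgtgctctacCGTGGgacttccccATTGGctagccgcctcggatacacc

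The element of Hspa5 lay 65 to 47 bases before the start and that of Syvn1 44 to 26 bases before it. Hsp90b1 held 1 element at 107 to 89 bases on the opposite strand and another at 212 to 194 bases on the strand of the gene. Calr and Canx were the other holders. The second form of the element, ATTGGNCCACG (opposite strand CGTGGNCCAAT), stood in 2 of the 32 windows, those of Dnajb11 and Herpud1, and in 0.0444% of all windows. The site TGACGTGG (opposite strand CCACGTCA, which contains the CCACG box) stood in 0 of the 32 and in 0.714% of all windows. The ATF4 site TGATGNAA (opposite strand TTNCATCA) stood in 1 window, that of Herpud1, and in 4.51% of all windows. No window was given for Hyou1, Manf, Sec61a1, Ssr2, Spcs3, Sec11c, Derl1 and Atf6.

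Some facts of the whole series touch every value below. The arrays' medians lay between 3.27 and 3.31. The 2 probe sets of Trib1 did not separate the genotypes (4.85, 5.19, 5.13 and 4.71 for one of them and 4.95, 5.10, 5.99 and 5.56 for the other, each time wild type and then Trib1-/-, first in GMP and then in MDP, the order of all series of 4 values below). They do not check the labels, so Trib1-/- below means the array so labelled. The BioB and BioC hybridisation controls had medians of 10.17, 10.57, 10.82 and 10.71 in that order, lowest in wild-type GMP, while the BioD and Cre controls lay between 13.69 and 13.72. Signal at the 3′ end of Gapdh exceeded that at its 5′ end by 1.06, 1.20, 1.44 and 1.66. For b-Actin the excess was 2.01, 1.91, 2.01 and 1.67, lowest in Trib1-/- MDP, so the 2 controls did not share an order. The part of these technical measures in the results was not tested. The one spread open to measurement was that among probe sets for the same gene, over 4922 genes. Its SD was 0.372 for the difference between genotypes in GMP, 0.383 for that in MDP, 0.543 for MDP minus GMP in wild type and 0.422 for MDP minus GMP in Trib1-/-. It leaves out the spread between animals and sorts, and having 4 arrays limits the precision.

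Most of the ER genes were lower in MDP than in GMP, in both genotypes. In wild type 27 of the 39 were at least 2-fold lower in MDP, where 12.4% of all genes were, and 0 were at least 2-fold higher, where 4.16% were. In Trib1-/- 13 were at least 2-fold lower, where 4.08% of all genes were, and 0 at least 2-fold higher, where 2.75% were. The median difference of the 39 was -1.13 in wild type and -0.68 in Trib1-/- on the log2 scale, against -0.04 and -0.01 over all 11653 genes. Genes with a mean level of at least the 75th percentile had medians of -0.14 and -0.00 (5745 genes). Below 0 were 36 of the 39 in wild type and 35 in Trib1-/-, beside 52.6% and 51.3% of all genes. Both GMP arrays read above both MDP arrays in 33 of the 39 genes, where 29.8% of all genes did, and both read below in 1, Ddit3, where 25.6% did. Adding 32 to the linear values before log2 shrinks the differences of weak genes. With it 15 genes were at least 2-fold lower in wild type, beside 2.72% of all genes, and 3 in Trib1-/-, beside 0.558%. In sorted bulk RNA, fewer cells that express a gene and less RNA per cell cannot be told apart.

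**Figure D1:**
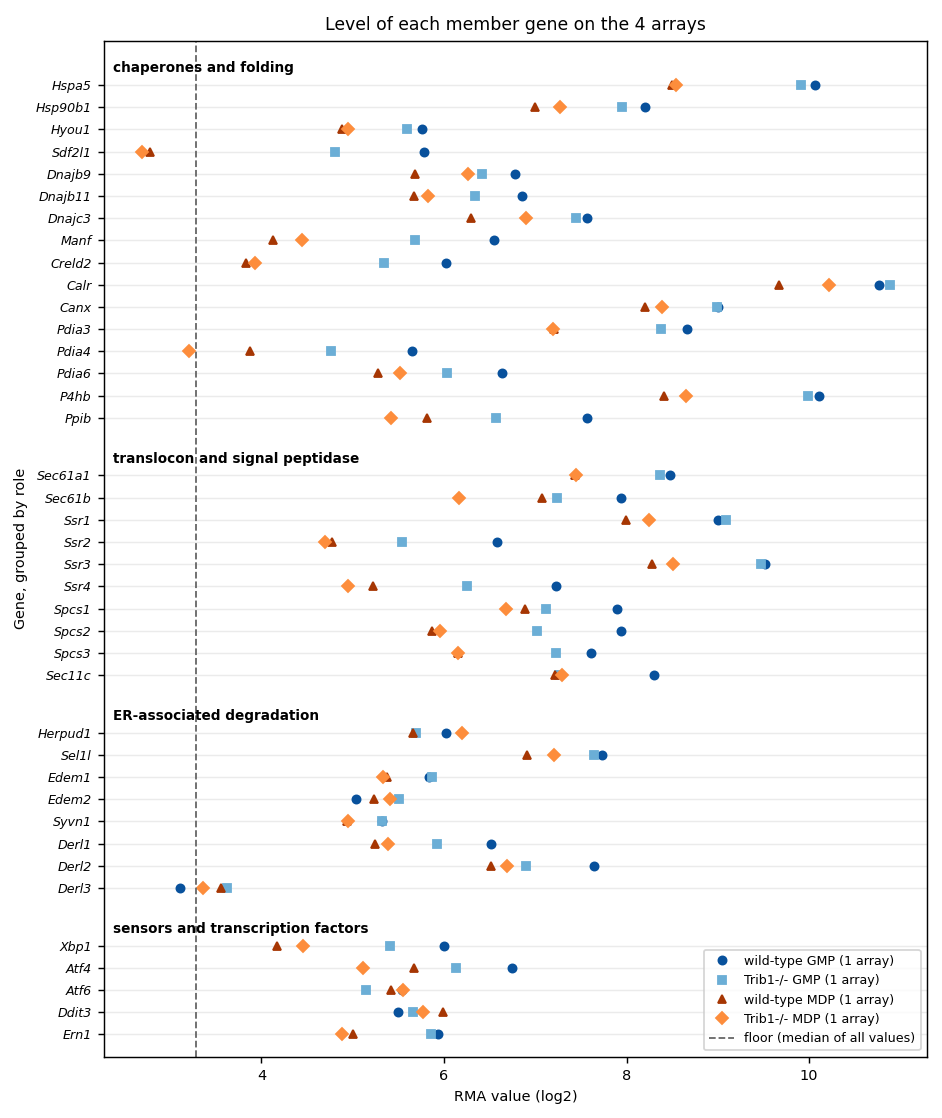
Log2 RMA value (horizontal axis) of each of the 39 genes (vertical axis, grouped by role) on the 4 arrays, 1 point per array, with the floor of 3.29 as a dashed line. For 33 of the 39 genes both GMP points lie to the right of both MDP points. Sdf2l1 lies left of the floor in both MDP arrays.

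Chaperones and folding enzymes had the lowest median of the 4 roles in wild type. All 16 were lower in MDP in both genotypes, with medians of -1.41 in wild type and -0.91 in Trib1-/-. At least 2-fold lower were 14 in wild type and 8 in Trib1-/-. Hspa5, which encodes BiP, the main ER chaperone of the heat shock family, read 10.07 (wild type) and 9.91 (Trib1-/-) in GMP and 8.49 (wild type) and 8.54 (Trib1-/-) in MDP. Both GMP values were thus well above both MDP values, 2.98-fold in wild type and 2.58-fold in Trib1-/-. Hsp90b1, the ER member of the HSP90 family, read 8.20, 7.95, 6.995 and 7.27 in the same order. Its MDP value was 2.31-fold lower in wild type and 1.61-fold lower in Trib1-/-. The second chaperone of the lumen, Hyou1, stayed under 2-fold with differences of -0.88 and -0.65, although its 3 probe sets ranged from -2.76 to 0.37 in wild type. Without probe sets of possible cross-hybridisation it was at -2.76 and -1.30, past 2-fold in both genotypes.

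Partners of BiP and a related stress gene held the largest differences in wild type. Sdf2l1, part of a complex of BiP cofactors, read 5.78 (wild type) and 4.81 (Trib1-/-) in GMP and 2.78 (wild type) and 2.69 (Trib1-/-) in MDP. The MDP values lay below the floor, 7.96-fold and 4.34-fold under the GMP value of the same genotype. Once its MDP values were raised to the floor, the log2 differences were -2.49 and -1.52 in place of -2.99 and -2.12. Manf, a secreted ER protein that binds BiP, read 6.55, 5.68, 4.13 and 4.44. It was 5.34-fold lower in MDP of wild type and 2.35-fold lower in MDP of Trib1-/-. Creld2, a secreted protein induced by ER stress, read 6.02, 5.35, 3.83 and 3.93, a gap of 4.57-fold and 2.66-fold. In these 3 genes wild-type GMP was highest, Trib1-/- GMP next, and the MDP arrays were close together.

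Of the J-domain proteins, which pass clients to BiP, Dnajb9 read 6.78, 6.41, 5.68 and 6.27. Dnajb11 read 6.85, 6.34, 5.67 and 5.82, and Dnajc3, which encodes the PERK inhibitor p58IPK, read 7.57, 7.45, 6.30 and 6.90. All 3 were more than 2-fold lower in MDP of wild type (-1.10, -1.19 and -1.27) and less than 2-fold lower in MDP of Trib1-/- (-0.14, -0.51 and -0.55). Wild-type MDP held the lowest value of each.

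Calr, the soluble lectin chaperone calreticulin, read 10.76, 10.88, 9.66 and 10.22, and was the 1 chaperone whose highest value was in Trib1-/- GMP. Its membrane-bound relative Canx (calnexin) differed by -0.80 in wild type and -0.60 in Trib1-/-, under 2-fold in both by its strongest probe set. Weaker probe sets of Canx, also above the floor, gave -1.48 and -1.84 in wild type, past 2-fold, and -0.17 and -1.13 in Trib1-/-. Among the disulfide isomerases, which form and rearrange disulfide bonds, P4hb read 10.11, 9.99, 8.41 and 8.65. Pdia3, which works with the lectin chaperones, read 8.67, 8.38, 7.21 and 7.20. These 2 isomerases were at least 2-fold lower in MDP in both genotypes, P4hb by 3.24-fold and 2.53-fold and Pdia3 by 2.75-fold and 2.27-fold. A weaker probe set of Pdia3 differed by 0.11 and -0.10.

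Pdia4 read 5.64, 4.76, 3.87 and 3.20, the last below the floor. Pdia6 read 6.64, 6.04, 5.28 and 5.51. Pdia4 was lower in the Trib1-/- array of either progenitor, by -0.89 in GMP and -0.67 in MDP, whereas Pdia6 was lower in GMP (-0.60) and slightly higher in MDP (0.24). Ppib, the ER prolyl isomerase cyclophilin B, read 7.57, 6.56, 5.82 and 5.42. It was 3.37-fold lower in MDP of wild type and 2.21-fold in MDP of Trib1-/-, and its second probe set gave -1.99 and -0.90 on the log2 scale.

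Genes of the translocon and signal peptidase had medians of -1.16 in wild type and -0.94 in Trib1-/-, with 9 and 4 of 10 at least 2-fold lower in MDP. Sec61a1, the pore subunit of the channel, read 8.48 (wild type) and 8.36 (Trib1-/-) in GMP and 7.43 (wild type) and 7.44 (Trib1-/-) in MDP. By this probe set the genotypes were nearly equal, and the progenitors differed 2.07-fold and 1.89-fold. The 5 probe sets of Sec61a1 above the floor ranged from -1.23 to 0.19 between progenitors in wild type. Between genotypes they ranged from -0.51 to 0.13 in GMP and from -0.39 to 0.38 in MDP. Sec61b, a small subunit of the channel, read 7.94, 7.24, 7.07 and 6.16. It was the 1 member at least 2-fold lower in MDP of Trib1-/- (-1.08) but not of wild type (-0.87), and it had the lowest genotype difference in MDP (-0.91).

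The SSR genes encode the translocon-associated protein complex, which sits beside the channel and helps chains to enter it. Ssr1 read 8.998, 9.09, 7.996 and 8.25, and Ssr3 read 9.52, 9.48, 8.28 and 8.51. In both of them the genotypes lay within 0.25 of each other and the progenitors 0.84 to 1.24 apart. Ssr2 read 6.57, 5.54, 4.78 and 4.70, and Ssr4 read 7.23, 6.25, 5.22 and 4.95. These subunits were lower in Trib1-/- GMP too, by -1.03 and -0.98, and had the wider progenitor gaps of the complex in wild type, 3.48-fold and 4.03-fold. The second probe set of Ssr4 gave -0.07 between genotypes in GMP and -0.80 between progenitors in wild type. Subunits of 1 complex thus differed in how the Trib1-/- GMP array read.

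Signal peptidase genes showed a similar order of the arrays. Spcs1 read 7.89, 7.11, 6.88 and 6.68, Spcs2 read 7.94, 7.01, 5.87 and 5.96, and Spcs3, an essential part of the enzyme, read 7.61, 7.22, 6.15 and 6.16. Wild-type GMP was highest in all 3, Trib1-/- GMP was second, and both MDP arrays were below. Spcs2 had the widest gap of the 3 in wild type, 4.20-fold, and differed 2.08-fold in Trib1-/-. Sec11c, a catalytic subunit, read 8.30, 7.26, 7.22 and 7.30, so that wild-type GMP stood alone. Its second probe set read 6.46, 6.89, 6.70 and 6.97 and went the other way, with 0.44 between genotypes in GMP and 0.24 between progenitors in wild type.

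ER-associated degradation genes were nearer to all genes. Their medians were -0.42 in wild type and -0.32 in Trib1-/-, and 2 and 0 of 8 were at least 2-fold lower in MDP. The 2 were the derlins Derl1 and Derl2, membrane proteins of the channel that returns chains to the cytosol. Derl1 read 6.51 (wild type) and 5.93 (Trib1-/-) in GMP and 5.25 (wild type) and 5.39 (Trib1-/-) in MDP. Derl2 read 7.64, 6.90, 6.51 and 6.69. In both, wild-type GMP was highest and wild-type MDP lowest by the strongest probe set. Weaker probe sets of Derl1, also above the floor, gave -0.35 and -0.76 in wild type, under 2-fold, and read lowest in Trib1-/- MDP. The other 6 ranged from -0.83 (Sel1l) to 0.45 (Derl3) in wild type and from -0.53 (Edem1) to 0.50 (Herpud1) in Trib1-/-. Syvn1, the ubiquitin ligase that forms a complex with the adaptor Sel1l, differed by -0.39 and -0.37. Derl3 lay near the floor on all arrays (3.11, 3.63, 3.56 and 3.36), and its order carries little weight. Edem2, which trims mannose from misfolded glycoproteins, had probe sets in opposite directions (0.20 and -1.09 in wild type).

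The sensors and transcription factors were mixed. Xbp1 read 6.004 (wild type) and 5.41 (Trib1-/-) in GMP and 4.17 (wild type) and 4.46 (Trib1-/-) in MDP. It was 3.56-fold lower in MDP of wild type and 1.93-fold lower in MDP of Trib1-/-. All 4 of its probe sets were lower in MDP, by -1.39 to -2.03 in wild type and by -0.65 to -1.03 in Trib1-/-, and whether a probe set tells spliced from unspliced messenger is not stated in the sources used here. Ern1, which encodes the IRE1 kinase that splices Xbp1, read 5.93, 5.86, 5.01 and 4.88. Its differences of -0.92 and -0.98 were just short of 2-fold in both genotypes. Another Ern1 probe set of similar level gave -1.42 in wild type and -0.52 in Trib1-/-, and a weaker one -0.44 and -0.61.

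Atf4, the factor made when PERK is active, read 6.75, 6.13, 5.67 and 5.11, so both genotype and progenitor separated the arrays. MDP was 2.11-fold and 2.02-fold below GMP. A second probe set gave -0.80 and -0.81 for the progenitors but 0.04 for the genotypes in either progenitor. Atf6 read 5.53, 5.14, 5.42 and 5.55, and the progenitors overlapped. Ddit3, which encodes the ER stress factor CHOP, read 5.50, 5.66, 5.99 and 5.77, the 1 gene of the 39 with both MDP arrays on top. Its second probe set gave -0.15 in wild type and 0.20 in Trib1-/-, so that direction is not shared by its probe sets. ATF4 and ATF6 are controlled largely after transcription, and these arrays measure messenger alone.

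**Figure D2:**
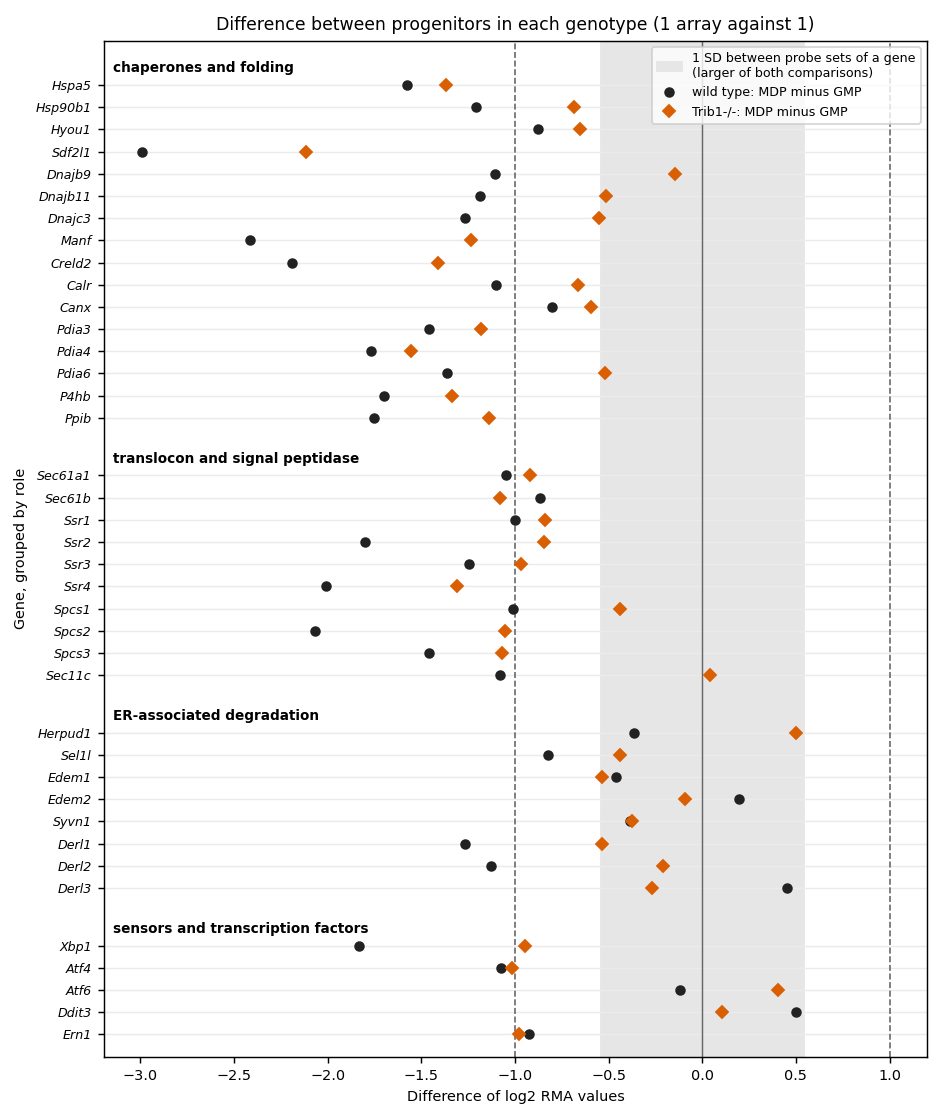
Log2 difference MDP minus GMP (horizontal axis) of each of the 39 genes (vertical axis) in wild type (circles) and Trib1-/- (diamonds), with 2-fold marked by dashed lines and 1 SD between probe sets of a gene shaded. In wild type 27 points and in Trib1-/- 13 points lie at or left of the 2-fold line, and none lies at or right of the other.

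MDP minus GMP was lower in wild type than in Trib1-/- for 33 of the 39 genes, beside 55.6% of all genes. All 16 chaperones and 9 of the 10 translocon and signal peptidase genes were among the 33. The 2 differences share no array. At least 2-fold lower in both genotypes were 12 genes, that is 44.4% of the 27 in wild type and 92.3% of the 13 in Trib1-/-, where 2.85% of all genes were 2-fold lower in both. They were Hspa5, Sdf2l1, Manf, Creld2, Pdia3, Pdia4, P4hb, Ppib, Ssr4, Spcs2, Spcs3 and Atf4. Of the genes 2-fold lower in wild type, 18 had several probe sets above the floor, and in 15 all of these were lower. The exceptions were Pdia3, Sec61a1 and Sec11c. In Trib1-/- all probe sets were lower in 6 of 6 such genes.

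Between the genotypes the ER genes differed less. In GMP 3 of the 39 were at least 2-fold lower in Trib1-/-, where 3.16% of all genes were, and 0 were at least 2-fold higher, where 0.481% were. The 3, Sec11c (-1.04), Ssr2 (-1.03) and Ppib (-1.01), lay just past the threshold, and Ssr4 (-0.98), Sdf2l1 (-0.97) and Spcs2 (-0.93) just short of it. The count was 0 with each array centred on the median of its values above the floor, beside 2.02% of all genes. It was 0 with 32 added (beside 0.129%) and 1 of 31 without probe sets of possible cross-hybridisation (2.89%). The median of the 39 was -0.37, a 1.29-fold difference, against -0.06 over all genes and -0.09 over well expressed genes, and 32 of the 39 were below 0, beside 55.2% of all genes. This median is about as large as 1 SD between probe sets of a gene (0.372), which measures single differences and not the spread of a median. That SD was exceeded downwards by 19 genes and upwards by 2. Of all 11653 genes 2858 exceeded it downwards and 1574 upwards. Several probe sets above the floor were held by 27 genes, of which 13 had all of them in 1 direction.

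By role, the translocon and signal peptidase genes had the lowest genotype median in GMP, -0.74, with 9 of 10 below 0 and Ssr1 (0.09) the exception. Chaperones had a median of -0.33 with 15 of 16 below 0. Within that role the abundant Hspa5 (-0.16), P4hb (-0.12), Canx (-0.01) and Calr (0.12) were close to equal, while Ppib (-1.01), Sdf2l1 (-0.97), Pdia4 (-0.89), Manf (-0.87) and Creld2 (-0.67) were lower. Weaker probe sets of Canx were lower (-0.64 and -0.41), and those of Hspa5 (0.28 and 0.12) and Calr (0.41 and 0.16) were higher. The sensors and factors had a median of -0.39, with Atf4 at -0.62 and Xbp1 at -0.60. The degradation genes had a median of -0.05, with Derl2 (-0.74) and Derl1 (-0.58) lower and Derl3 (0.52) and Edem2 (0.46) higher.

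In MDP the genotypes were closer still. There 0 of the 39 were at least 2-fold lower in Trib1-/-, where 1.53% of all genes were, and 0 at least 2-fold higher, where 1.1% were. The median was 0.09, against 0.01 over all genes and 0.06 over well expressed genes, and 13 of the 39 were below 0, beside 48.5% of all genes. More than 1 SD between probe sets (0.383) lay 4 of the 39 genes on either side. Of all 11653 genes 1901 lay past it downwards and 1907 upwards, so the members were not above the background. Higher in Trib1-/- were Dnajc3 (0.60), Dnajb9 (0.59), Calr (0.55) and Herpud1 (0.53), and lower were Sec61b (-0.91), Pdia4 (-0.67), Atf4 (-0.56) and Ppib (-0.39). Weaker probe sets of Dnajc3 disagreed (0.48, -0.02 and -0.20), as did that of Atf4 (0.04). Those of Herpud1 (0.18) and Ppib (-0.10) gave smaller differences, and those of Calr (0.54 and 0.67) similar ones. Probe sets all pointed the same way for 12 of 27 members, counting members where more than 1 reached the floor. Chaperones had a median of 0.17, degradation genes 0.16, translocon and signal peptidase genes 0.01, and sensors and factors -0.13. Lower in Trib1-/- GMP and higher in Trib1-/- MDP were 22 of the 39 genes, beside 29.5% of all genes, and lower in both were 10, beside 25.6%.

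**Figure D3:**
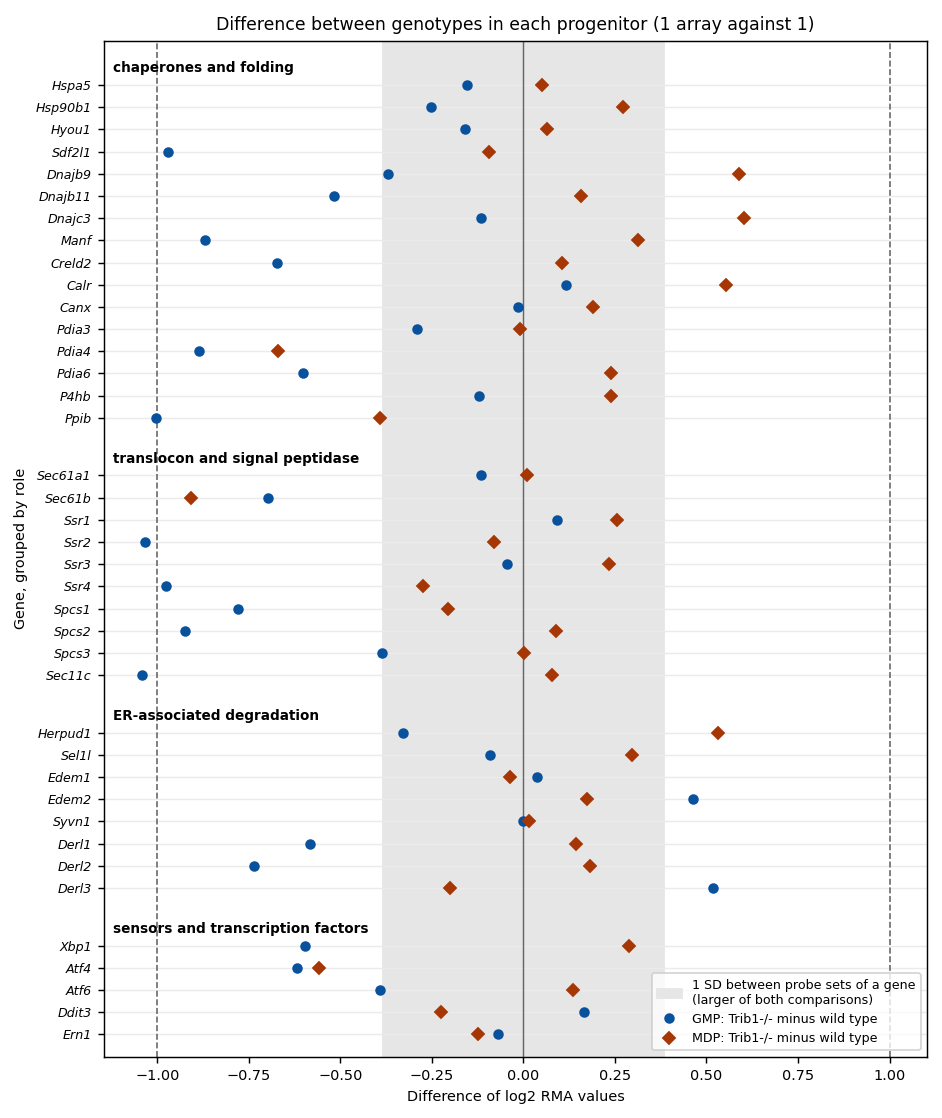
Log2 difference Trib1-/- minus wild type (horizontal axis) of each of the 39 genes (vertical axis) in GMP (circles) and MDP (diamonds), with 2-fold marked by dashed lines and 1 SD between probe sets of a gene shaded. In GMP 32 points lie below 0 and 3 lie past the lower 2-fold line, and in MDP 13 points lie below 0 and none passes 2-fold.

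The wild-type GMP array enters both the genotype difference in GMP and the progenitor difference in wild type, so a value that is high on it lowers both. It held the highest of the 4 values in 31 of the 39 genes (79.5%), beside 37.1% of all genes. Trib1-/- GMP was highest in 5, Trib1-/- MDP in 2 and wild-type MDP in 1. The lowest value was in wild-type MDP for 24 genes and in Trib1-/- MDP for 11. The progenitor difference in Trib1-/-, which uses neither wild-type array, still had 35 of 39 genes below 0.

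Other genes of the secretory pathway, 94 genes above the floor in 8 lists, showed where the pattern reached. In MDP of wild type 29 of them (30.9%) were at least 2-fold lower, beside 12.4% of all genes, and 1 at least 2-fold higher, beside 4.16%, with a median of -0.78. In MDP of Trib1-/- 8 (8.51%) were lower, beside 4.08%, and 1 higher, beside 2.75%, with a median of -0.32. The oligosaccharyltransferase, which attaches sugar chains to proteins as they enter the ER, was closest to the chaperones. Its 11 genes had medians of -1.46 and -0.84, with 8 and 4 at least 2-fold lower. The list of the signal recognition particle and its receptor, which bring ribosomes to the translocon, had medians of -1.03 and -0.45 (6 and 0 of 10). It also held Sec62, Sec63 and Sec11a, which are parts of neither. Sec11a, a signal peptidase gene, had the lowest difference of that list in wild type (-1.81). Redox enzymes and further isomerases had medians of -0.98 and -0.64 (6 and 1 of 12), and transport from the ER to the Golgi -0.91 and -0.28 (6 and 0 of 21).

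The other lists lay nearer to 0 in wild type. Glycoprotein quality control had medians of -0.71 and -0.46 (2 and 2 of 9), further degradation genes -0.44 and -0.43 (1 and 0 of 10), and further ER stress factors -0.47 and -0.14 (0 and 0 of 10). Targets of the PERK branch and of ATF4 had medians of -0.35 and 0.01, with 0 and 1 of 11 at least 2-fold lower. Below the floor on all arrays were the other members of that list, Trib3, Chac1, Atf5 and Slc7a11.

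Between the genotypes 2 of these 94 genes were at least 2-fold lower in Trib1-/- GMP, a share of 2.13% beside 3.16% of all genes, and 0 in Trib1-/- MDP, beside 1.53%. The count in GMP was thus not above the background. The first was Ost4, a small subunit of the oligosaccharyltransferase, which read 6.49, 5.18, 4.74 and 4.63 and differed by -1.31 in GMP. The second was Erp29, a chaperone of the isomerase family, which read 5.13, 4.01, 3.96 and 4.09 and differed by -1.11. In both genes wild-type GMP stood above the other 3 arrays. The median of the 94 was -0.20 in GMP, with 72 (76.6%) below 0 beside 55.2% of all genes, and 0.03 in MDP, with 41 (43.6%) below 0 beside 48.5%. The genotype medians in GMP ran from -0.46 for the list of the signal recognition particle to 0.01 for the PERK branch. Those in MDP ran from -0.04 for the oligosaccharyltransferase to 0.28 for transport from the ER to the Golgi.

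**Figure D4:**
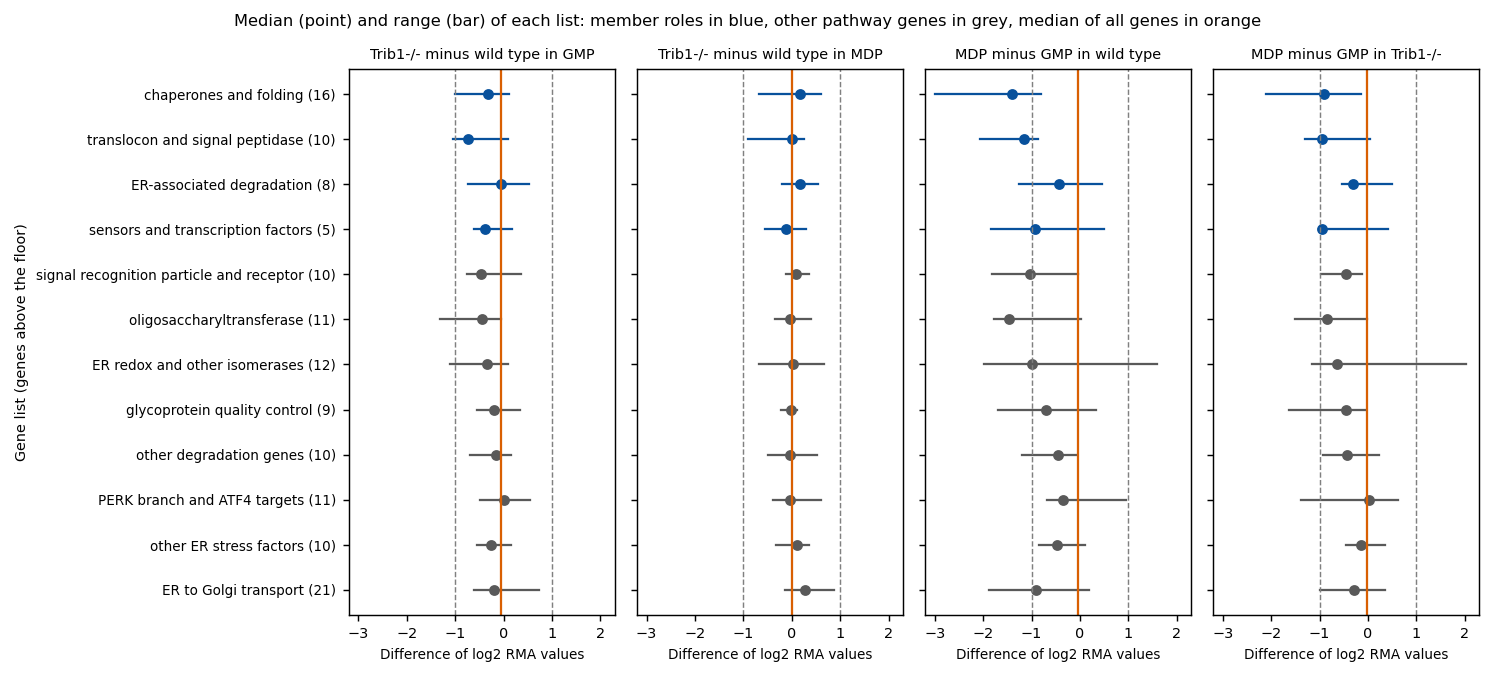
Median (point) and range (bar) of the log2 differences (horizontal axis) of the 4 roles and 8 other pathway lists (vertical axis, genes above the floor in brackets), 1 panel for each of the 4 differences, with the median of all genes as an orange line. In wild type the medians of MDP minus GMP run from -1.46 for the oligosaccharyltransferase to -0.35 for the PERK branch, all left of the median of all genes at -0.04.

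Markers of cell types moved with the same arrays. Genes of GMP and granule cargo, 10 of 11 measured and above the floor, had a summed level of 7957 (wild type) and 6909 (Trib1-/-) in GMP and 1503 (wild type) and 1433 (Trib1-/-) in MDP on the linear scale. Mpo, which encodes myeloperoxidase, read 11.90, 11.99, 10.04 and 9.93, and Elane, which encodes neutrophil elastase, read 9.57, 9.03, 4.24 and 3.50. In Trib1-/- GMP 9 of the 10 were lower than in wild type, with a median of -0.54, Mpo being the exception at 0.09. All 10 were lower in MDP of wild type and 9 in MDP of Trib1-/-, with Lyz2 at -0.20 and 0.19. The products of Mpo and Elane are made on ER-bound ribosomes. Both genes were lower in MDP, as most ER genes were, and the part of cargo in that difference was not tested. Genes of the monocyte and dendritic progenitor had sums of 480, 495, 1127 and 1116, with all 7 higher in MDP in both genotypes. Kit, of the list of GMP and granule cargo, did not reach the floor in MDP (2.43 and 2.69). Most genes of GMP and granule cargo and most ER genes were thus lower on the MDP arrays, and the part of cell makeup in the results was not tested.

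Markers of plasma cells, which are rich in ER, and of B cells had sums of 177, 186, 273 and 278. In MDP of wild type 3 of 9 were at least 2-fold higher, beside 4.16% of all genes. They were Sdc1 (1.77), Cd79a (1.19) and Tnfrsf17 (1.18). Cd79b (-0.66), Prdm1 (-0.19) and Jchain (-0.02) were lower there, also 3 of 9. In MDP of Trib1-/- 1 was at least 2-fold higher, beside 2.75% of all genes. Mzb1 and Pax5 of this list lay below the floor on all arrays. Basophil and mast cell markers had sums of 483, 200, 74.3 and 61.4, and all 7 were lower in Trib1-/- GMP, with a median of -1.16. Most ER genes and most genes of GMP and granule cargo were lower on that array too, and the part of these cells in the genotype difference was not tested. Mature monocyte and macrophage markers had sums of 148, 147, 488 and 266, with C1qa and C1qc below the floor on all arrays, and dendritic cell markers 130, 143, 202 and 179, with H2-Ab1 and Xcr1 below it. Of the erythroid markers 1 of 6 measured was above the floor, with sums of 97.2, 63.4, 54.3 and 29.7, and of the T and NK cell markers 3 of 7, with sums of 469, 268, 87.6 and 84.0. Nkg7, which read 8.71, 7.73, 4.10 and 3.49, made up most of the latter sums in GMP, whereas Cd3e and Cd4 were higher in MDP, by 0.77 and 0.43 in wild type. The part of these other cells in the results was not tested.

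Genes with and without the ER stress element overlapped in their differences. In MDP of wild type the 9 holders had a median of -1.21, with 6 at least 2-fold lower, and the 22 measured genes whose window lacks it had a median of -1.12, with 15 at least 2-fold lower. In Trib1-/- the medians were -0.60 (2 of 9) and -0.96 (9 of 22). Between genotypes in GMP they were -0.12 and -0.44, and in MDP 0.19 and 0.04. Among the printed sequences, Creld2 (-2.19) and Hspa5 (-1.57) carried the element beside large differences in wild type. Syvn1 (-0.39) and Derl3 (0.45) carried it beside small ones, Derl3 near the floor. Outside the 40 genes, 6 holders were above the floor, with a median of -0.02 in wild type and 0 at least 2-fold lower. For the second form, the 2 holders among the 40 genes, Dnajb11 and Herpud1, had medians of -0.78 in wild type and -0.01 in Trib1-/-. The 29 measured genes whose window lacks it had medians of -1.13 and -0.84. Outside the 40 genes, 5 holders of the second form were above the floor. Their medians were -1.46 in wild type (4 at least 2-fold lower, beside 12.4% of all genes) and -0.92 in Trib1-/- (2 lower, beside 4.08%). They were Krtcap2 (-1.46 in wild type), Lgalsl (-1.47), Nucb1 (-1.46), Rcl1 (-1.40) and Rbm39 (0.04). These windows are short, and an element outside them was not looked for.

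**Figure D5:**
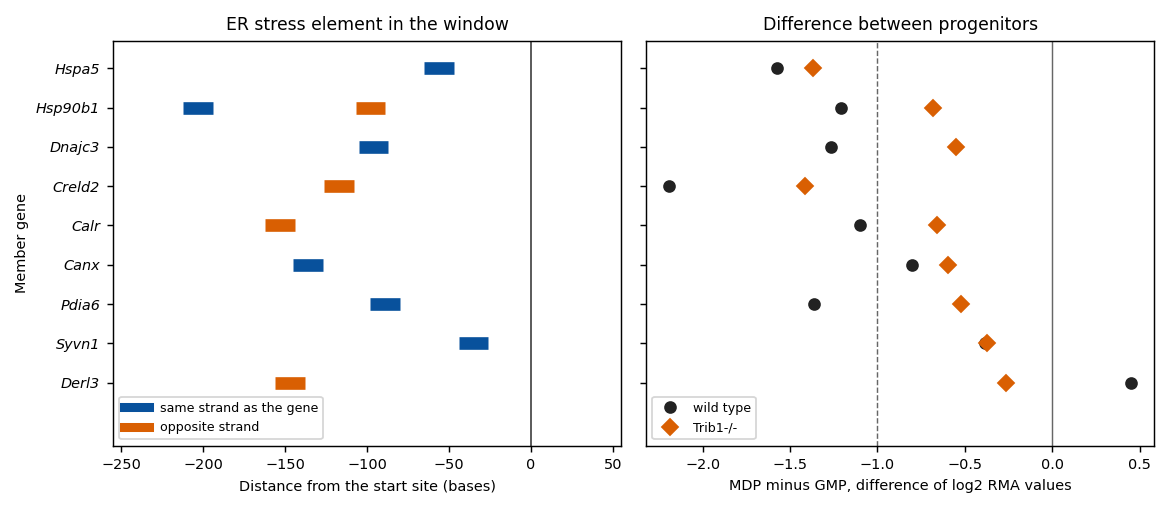
Left, position of the ER stress element (horizontal axis, bases from the start) in the windows of the 9 holders (vertical axis), coloured by strand. Right, their log2 difference MDP minus GMP in wild type (circles) and Trib1-/- (diamonds), with 2-fold as a dashed line. Holders run from -2.19 (Creld2) to 0.45 (Derl3) in wild type, and Hsp90b1 carries an element on either strand.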

How the data were processed

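The authors processed the arrays with RMA, per the submitters' processing notes. RMA subtracts background, equalises the distributions between arrays and gives 1 value per probe set. Its version and the genome build are not stated in the sources used here. The deposited values are taken as log2, a scale inferred from their range of 0.14 to 14.5. RMA removes differences in total RNA per cell, and amplification of small amounts of RNA can widen the spread of weak genes.

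Of 45101 probe sets, 64 controls were left out, and the 34945 with 1 gene symbol in the platform annotation were used (932 had several). Older symbols were updated through the RefSeq table of GRCm38.p6. A gene was used where its highest value reached the floor. The 4 differences were counted by a size rule of 1 on the log2 scale (2-fold), read against all genes. All values are given for every sensor and factor and every other member at least 2-fold apart in any difference, and other pathway genes are named where at least 2-fold apart between genotypes. Further genes were named after their values were seen. The members and lists were chosen with earlier results of these data known. Promoter windows came from RefSeq and both strands were searched. The calculation was tested on simulated data. Alternatives were the average over probe sets of a gene, dropping probe sets of possible cross-hybridisation, no floor, a higher floor (75th percentile), values raised to the floor, 32 added before log2, centred arrays, cyclic loess (limma 3.58.1, R 4.3.3) and a 1.5-fold rule. Other steps used Python 3.11.15, pandas 2.3.3 and numpy 2.4.6.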

Additional observations from a re-analysis of the deposited data

Results flagged for a closer look

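The median of the 39 ER genes went in opposite directions in the 2 progenitors. It was -0.37 in GMP and 0.089 in MDP for Trib1-/- minus wild type on the log2 scale. This difference between the progenitors was not tested, since each value compares 1 array with 1 array. The MDP value is smaller than 1 SD between probe sets of a gene (0.383), which measures single differences and not the spread of a median.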

How the results depend on the processing

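The medians of the 39 genes kept their direction under every alternative run, from -0.27 to -0.44 for the genotypes in GMP, 0.02 to 0.16 for those in MDP, -0.91 to -1.16 for MDP minus GMP in wild type and -0.52 to -0.76 in Trib1-/-. The counts at 2-fold depended more on the choices. For genes lower in Trib1-/- GMP (3), the count was 1 of 31 without probe sets of possible cross-hybridisation, beside 2.89% of all genes. It was 0 with 32 added before log2 (beside 0.129%), 0 with centred arrays (2.02%) and 15 with the 1.5-fold rule (13.2%). In MDP, where none passed 2-fold, 2 of 39 were lower and 2 higher at 1.5-fold, beside 7.61% and 7.16% of all genes. For genes lower in MDP of wild type (27) the count was 15 with 32 added, beside 2.72% of all genes. For those lower in MDP of Trib1-/- (13) it was 3 with 32 added, beside 0.558%, and 23 at 1.5-fold, beside 12.7%. Adding 32 shrinks the differences of weak genes by construction. Without probe sets of possible cross-hybridisation Sec11c reversed, to 0.44 between genotypes in GMP and 0.24 between progenitors in wild type, because another probe set then stands for it. Other counts stayed within 1.5 times of their value under the alternatives run. Of single differences, 22 of 156 moved by more than the spread between probe sets when probe sets were averaged. With 32 added 18 moved, and under cyclic loess 0 did. Without probe sets of possible cross-hybridisation 15 of 124 moved, and 2 more, those of Sec11c above, reversed. Reversal was counted only for differences of at least 2-fold, and smaller ones could change sign too. In that setting Ssr4 between genotypes in MDP went from -0.27 to 0.30. No paired analysis was possible because each group holds 1 array, which also leaves nothing to leave out. Values near the floor, those of Derl3 and of Sdf2l1 and Pdia4 in MDP, are limited by background.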

Other observations

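The following genes were picked after their values were seen. Prdx4, a peroxiredoxin of the ER that helps to form disulfide bonds, was the 1 gene of the 94 in the other pathway lists at least 2-fold higher in MDP, by 1.59 in wild type and 2.03 in Trib1-/- on the log2 scale. It read 4.53 (wild type) and 4.31 (Trib1-/-) in GMP and 6.12 (wild type) and 6.34 (Trib1-/-) in MDP, while 11 of the 12 redox genes in wild type and 9 in Trib1-/- were below 0. Asns, the asparagine synthetase gene and a target of ATF4, read 5.39, 5.77, 4.73 and 4.39 and was 2-fold lower in MDP of Trib1-/- (-1.38) but not of wild type (-0.66). Tmed2, of transport from the ER, had the largest genotype difference in MDP of its list (0.86), with values of 2.53, 3.26, 2.72 and 3.58 around the floor.

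Probe sets of a member could disagree. In wild type the 3 probe sets of Hyou1 differed between the progenitors by -2.76, -0.88 and 0.37. The strongest of them on average, which stood for the gene, gave -0.88. The second probe set of Derl2 was higher in Trib1-/- MDP by 1.14, where the first gave 0.18, and its wild-type MDP value (2.59) lay below the floor.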
